A study of Mus musculus with 4 samples.

Results

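The comparison described here sets livers of A34 mice, which carry 2 copies of a mutant transgene of the selenocysteine tRNA gene Trsp, against livers of wild-type mice. The change, T34 to A34, lies at position 34 of the tRNA, the wobble base of its anticodon. It is 1 of 4 comparisons with wild type in a study of 2-colour oligonucleotide arrays. The others are DTrsp, a knockout that lacks Trsp in the liver, and G37L and G37H, with 2 and 16 copies of a transgene changed from A37 to G37 beside the anticodon. All animals were males of the B6/FVB strain, 7 to 8 weeks old and on a diet sufficient in selenium, and the biological replicates came from littermates, each on its own array. The labels add that tissue was harvested after several passages. The labels leave unsaid if the transgenic livers lacked their own Trsp, which cells expressed the transgene, or whether the line descends from a single founder.

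All probes of the A34 column that are annotated with 1 gene were used, and probes of the same gene were averaged. Of 15478 probes, 13047 could be named, which gave 9285 genes, 2414 of them with 2 or more probes. Each value is the authors' average of a log ratio, over 4 animals per the labels though over fewer arrays for part of the probes by their decimals, read here as log2 of A34 (Cy5) over wild type (Cy3). The dye labels make this direction likely, but no source states it and the titles name wild type first. If the ratio runs the other way, every sign below is reversed, and the sources used here do not name the logarithm's base. Only the average is held, so no SD, interval or test across animals can be given, no wild-type value stands apart from the ratio, and every difference below is a description. Intensities were not used here, so the levels of liver markers could not be checked, and Trsp itself has no named probe.

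The selenocysteine tRNA reads a UGA codon as selenocysteine, the amino acid at the active site of selenoproteins such as glutathione peroxidases and thioredoxin reductases. Its wobble uridine can be methylated on the ribose. In mice, the methylated form has been tied to the synthesis of stress-related selenoproteins, among them GPX1 and SELENOW, more than to that of housekeeping ones such as the thioredoxin reductases, and the A34 form is known to lack that methylated uridine. Liver makes and secretes the plasma selenoprotein P, is a main site of cholesterol synthesis and makes most plasma proteins.

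The median gene stood at a log2 ratio of 0.07 in A34, with an SD of 0.36 over genes and a range from -3.10 to 2.85. Of all genes 59.1% lay above 0 and 40.9% below. At least 2-fold higher than in wild type were 130 genes (1.4% of those measured), and 42 were at least 2-fold lower (0.452%). With the column centred on its median the counts were 106 (1.14%) and 57 (0.614%). A set of 183 genes, taken as abundant transcripts without the use of intensities, had a median of 0.19. It joins the hepatocyte marker, cytosolic ribosomal protein, oxidative phosphorylation and reference gene lists described below. Centred on its median the counts were 74 and 99. The share of higher genes among those 2-fold apart was thus 75.6% as deposited, 65.03% centred on all genes and 42.8% centred on abundant transcripts. With the sign turned these shares would be 24.4%, 34.97% and 57.2%. Which direction prevailed over the liver as a whole therefore depends on the zero point, and list medians are given below beside the median of all genes. Values just inside the upper threshold were those of Lcat and Aqp1, at 1.01 each, and just outside stood Ctsa and Gbp9 at 0.997 each, all 4 chosen for their place. At the lower threshold Aldh1a7 stood just inside at -1.002, and Echdc3 just outside at -0.99.

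**Figure D1:**
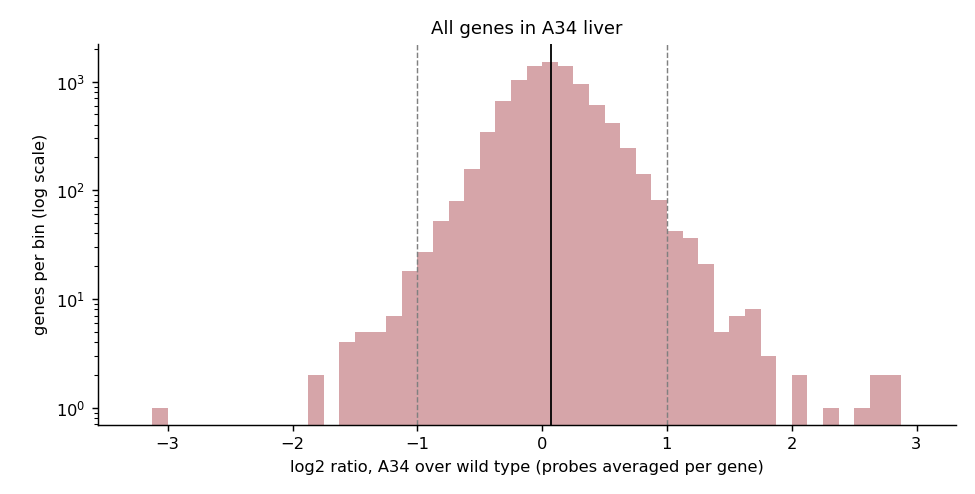
Number of genes (log scale) by log2 ratio of A34 over wild type, probes averaged per gene, in bins of equal width. The solid line marks the median of all 9285 genes at 0.07 and the dashed lines mark 2-fold; 130 genes lie at or beyond the upper line and 42 at or beyond the lower one.

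Scatter between probes is the only internal measure of spread. Probes of a gene share the RNA, the animals and the arrays, so they are not replicates of the animals. Their agreement says nothing of the spread between animals. Over all genes with several probes, single probes scattered about their gene's mean with a pooled SD of 0.35 on the log2 scale. Across the 1791 genes with exactly 2 probes, Pearson's r between the 2 was 0.30, a description across genes, which are not independent replicates. The arrays also hold genes probed many times. Among 13 genes with at least 20 probes each, 545 in all, the SD between probes of a gene ran from 0.14 for Ywhaz to 0.68 for the elongation factor Eef2, with a median of 0.27. The 67 probes of B2m, the light chain of class I antigen complexes, lay between -0.57 and 0.66. For Eef2 the 22 probes lay between -0.26 and 2.07, and for the glycosylation subunit Rpn2 between -0.60 and 2.03. Of these 545 probes, 19 were higher by 2-fold or more and 0 lower by as much, although they read only 13 genes. Ywhaz, Eef2, Rpn2 and B2m were chosen for their number or spread of probes, and the sources used here do not say if repeated probes carry the same oligonucleotide. A value past 2-fold on a single probe is therefore given as what that probe read. Of the 130 higher genes 98 rest on 1 probe, and of the 42 lower genes 38 do.

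Among selenoproteins the lowest were members of the stress-related class. Selenow, a small selenoprotein with a thioredoxin-like fold, stood at -1.47, which is 2.76-fold lower than in wild type. Gpx1, the cytosolic glutathione peroxidase, stood at -0.83, and the secreted plasma enzyme Gpx3 at -0.40. The other measured member, the methionine sulfoxide reductase Msrb1, lay on the other side, with probes at 0.66 and 0.87. The class of 4 thus had a median of -0.62 against 0.07 for all genes, with 3 members below 0, 1 above, and 1 at least 2-fold lower (0.452% of all genes). Selenow was low in every line, at -1.47 in A34, -1.02 in DTrsp, -1.60 in G37L and -1.59 in G37H. Gpx1 was below 0 in all 4 as well, at -0.83 in A34, -0.55 in DTrsp, -0.95 in G37L and -0.57 in G37H. Msrb1 was the exception, at 0.77 in A34, -0.27 in DTrsp, -0.28 in G37L and -0.69 in G37H.

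The 15 housekeeping and other selenoproteins had a median of 0.04, close to that of all genes. The phospholipid peroxidase Gpx4 stood at 0.57, the plasma selenium carrier Selenop at 0.38 and the mitochondrial selenoprotein Selenoo at 0.88. Dio1, the deiodinase that activates thyroid hormone, was at 0.76, with probes at 0.43, 0.56 and 1.30 that all lay above 0. The thioredoxin reductases Txnrd1 and Txnrd2 were both at -0.07. Txnrd2, the mitochondrial enzyme, was at -0.07 in A34, -0.85 in DTrsp, -1.42 in G37L and -1.53 in G37H, so its A34 value lay nearest to 0. The endoplasmic reticulum selenoproteins Selenof, Selenos and Selenok were at -0.28, -0.17 and 0.19, and the phosphotransferase Selenoi at -0.29. The remaining members, Selenov at -0.29, Gpx2 at -0.13, Selenon at 0.04 and Dio2 at 0.06, lay within 0.36 of the median of all genes. Over all 19 selenoproteins the median was -0.07 while the mean was 0.05, so the class as a whole had no single direction.

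Sephs2 was the only selenoprotein at least 2-fold higher (1.4% of all genes). It makes selenophosphate, the selenium donor for selenocysteine, and is itself a selenoprotein; it stood at 1.21 in A34, 1.09 in DTrsp, 0.01 in G37L and -0.25 in G37H. The machinery that charges and decodes the tRNA was otherwise near the median of all genes: the 14 measured factors had a median of 0.16, with Sephs2 the only 1 past 2-fold and 0 at least 2-fold lower. Sars, which loads the tRNA with serine, was at 0.68, the kinase Pstk that phosphorylates that serine at -0.27, and Sepsecs, which turns it into selenocysteine, at 0.21. Scly, which recovers selenium from selenocysteine, stood at 0.61, and Sephs1, a relative of Sephs2, at 0.43. Secisbp2, which binds the selenocysteine insertion element of the mRNA, was at 0.14, its relative Secisbp2l at -0.40 and Trnau1ap, a partner of the tRNA, at -0.09. The RNA-binding proteins Ncl, Rpl30, Elavl1, Celf1 and Eif4a3, reported to bind selenoprotein mRNAs, ranged from -0.15 for Ncl to 0.28 for Eif4a3.

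Genes for modifying and processing tRNAs were slightly low as a group, with a median of -0.11 over 40 members and 26 of them below 0, against 40.9% of all genes below 0. They were slightly low in the other lines as well. Relative to all genes of the same line, the list median was -0.18 in A34, -0.19 in DTrsp, -0.09 in G37L and -0.10 in G37H. Of these 40, 1 was higher by 2-fold or more (1.4% of all genes) and 0 lower by as much (0.452%). The higher one was Rpp25, a subunit of the nuclease that trims the front end of tRNAs, at 1.82. The lowest were the methyltransferase subunit Trmt61a at -0.74, the RNA polymerase III subunit Polr3d at -0.68 and the pseudouridine synthase Pus3 at -0.66. Picked with their values known, Adat2, a subunit of the enzyme that makes inosine from adenosine at the wobble position, was at -0.31, and Trit1, which adds the isopentenyl group beside the anticodon, at 0.07.

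**Figure D2:**
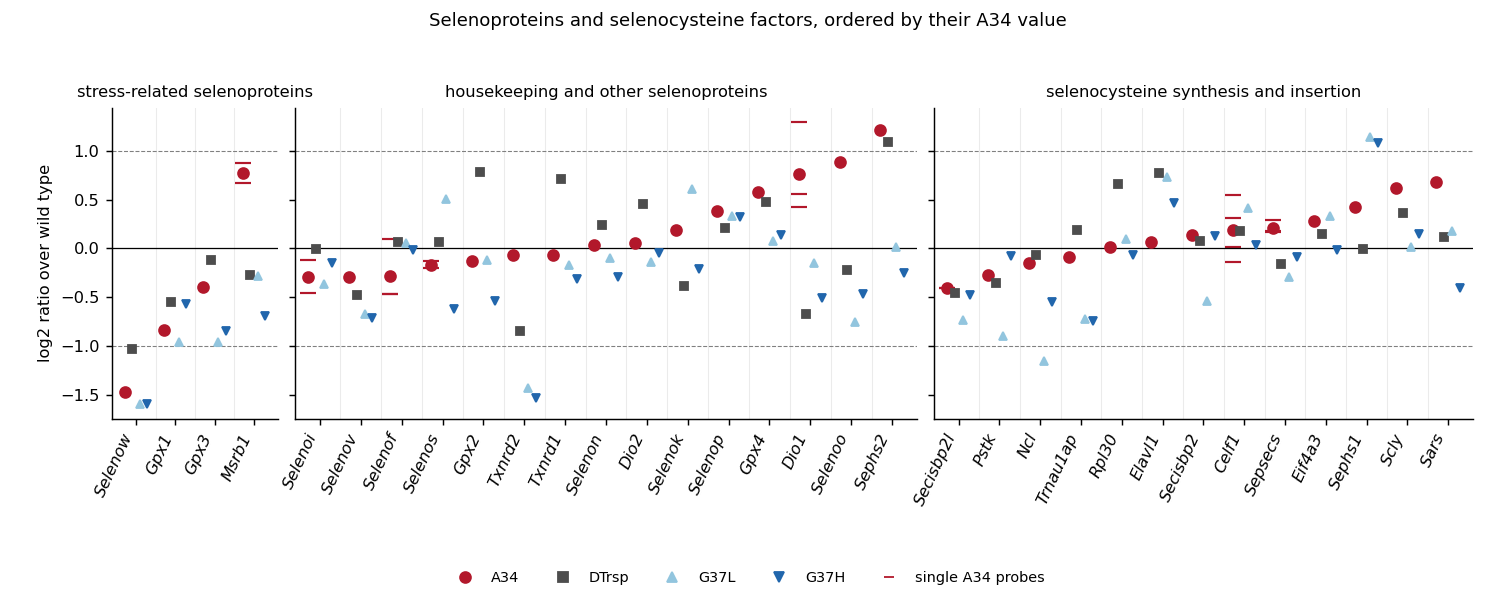
Log2 ratio over wild type of stress-related selenoproteins, the other selenoproteins and the selenocysteine factors, ordered by A34 value within each panel. Red circles are A34 genes and red dashes their single probes where there are several; squares and triangles are the other lines, and dashed lines mark 2-fold. Selenow at -1.47 and Sephs2 at 1.21 are the A34 values beyond 2-fold.

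Cholesterol synthesis was the list farthest below the median of all genes. Its enzymes turn acetyl-CoA into cholesterol through mevalonate, isoprenoids, squalene and a series of sterols. Of 16 measured enzymes 13 lay below 0, with 0 higher by 2-fold or more and 5 lower, which is against 0.452% of all genes lower. The median was -0.65 as deposited, -0.72 relative to all genes and -0.84 relative to abundant transcripts. At 1.5-fold 10 of the 16 were lower, against 2.65% of all genes, and 0 higher. At the entry to the mevalonate pathway the synthase Hmgcs1 stood at -1.56, or 2.95-fold lower than in wild type. Of the 2 mevalonate kinases, Mvk was at -0.13 and Pmvk at -0.76, and the decarboxylase Mvd that follows was at -0.66. Idi1, which isomerises the isoprene unit, was at -1.18, and Fdps, which joins these units, at -0.30.

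The probes of Fdps did not share a direction, with 0.19 and 0.46 on 2 of them and -1.55 on the other. Where the sterol ring is made, the epoxidase Sqle had probes at -1.80 and -0.98, and the cyclase Lss had probes at -0.64 and -0.66. Cyp51, which removes the first methyl group of the new ring, had probes at -1.22 and -1.16. These 3 enzymes were low on every probe, and all belong to the 15 genes of the column whose probes were all at least 1.5-fold lower. Msmo1, which removes the next methyl groups, stood at -1.30, and the reductase Hsd17b7 of the same stage at -0.65. Of the last steps the desaturase Sc5d was at -0.40 and the reductase Dhcr7 at -0.64. The 3 members above 0 were Nsdhl at 0.35, the reductase Tm7sf2 at 0.23 and the isomerase Ebp at 0.18, all enzymes of the sterol stage.

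In the other lines the same 16 genes had medians as deposited of 0.18 in DTrsp, 0.32 in G37L and -0.18 in G37H. Relative to all genes of the same line these were 0.02, 0.44 and -0.07. Sqle was at -1.39 in A34, -0.34 in DTrsp, 1.503 in G37L and 0.03 in G37H. Hmgcs1 was at -1.56 in A34, 0.93 in DTrsp, 0.36 in G37L and -0.61 in G37H. The difference between lines was not tested, and the sources used here do not say if the comparisons shared wild-type animals. Sterol uptake, transport and regulation did not follow synthesis: 18 genes had a median of 0.12, 1 higher by 2-fold or more (1.4% of all genes) and 0 lower (0.452%). Srebf2, the transcription factor that drives cholesterol synthesis genes, had probes at -0.04 and -0.57, and Insig2, which holds that factor back in the endoplasmic reticulum, was at -0.26. Scarb1, the receptor for high-density lipoprotein, had probes at 0.42 and 1.29, the sterol sensor Nr1h3 had probes at 0.34 and 1.51, and the plasma enzyme Lcat, which esterifies cholesterol, was at 1.01.

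**Figure D3:**
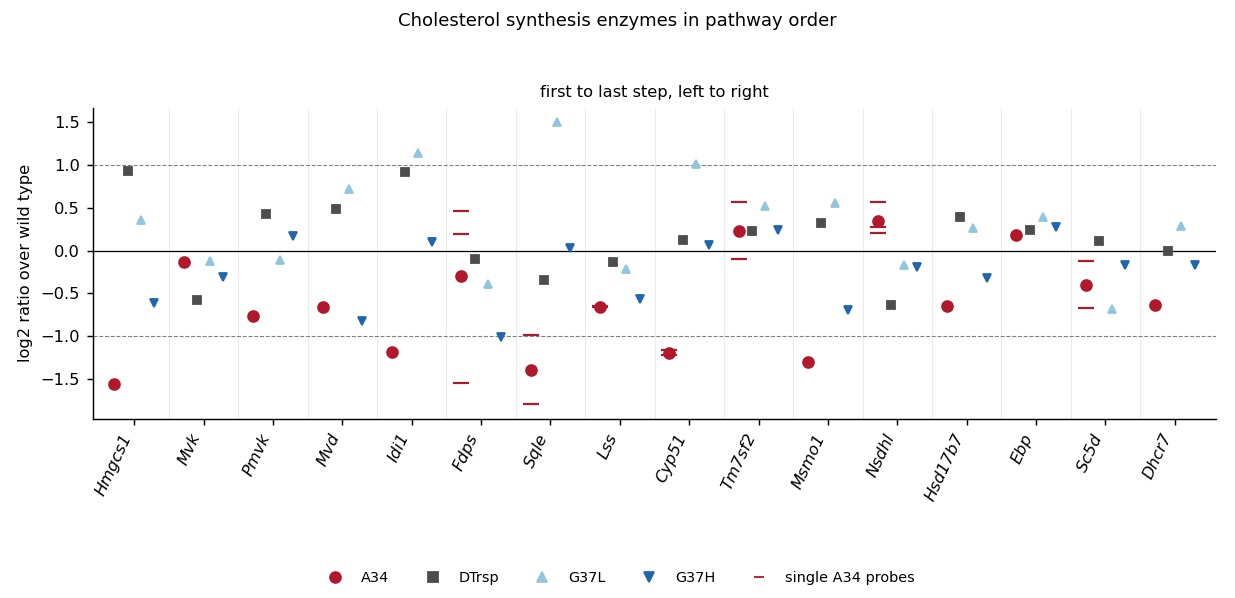
Log2 ratio over wild type of 16 cholesterol synthesis enzymes in pathway order. Red circles are A34 genes, red dashes their single probes where there are several, other symbols the other lines, and dashed lines mark 2-fold. In A34, 13 of 16 circles lie below 0 and Hmgcs1, Idi1, Sqle, Cyp51 and Msmo1 lie below the lower line.

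Promoters are shown for 4 of the 5 enzymes at least 2-fold lower, because cholesterol enzymes are known targets of SREBP factors, which bind sterol regulatory elements next to the factor NF-Y on CCAAT boxes. Each sequence is the 150 bases before the gene's start from RefSeq (GRCm38.p6), 5′ to 3′ on the gene's strand. Capitals mark CCAAT on either strand (ATTGG on the other) and, in Hmgcs1 only, the 9 letters TCACCCCAC of the motif TCACNCCAC. They are Hmgcs1 at chr13:119690201-119690350 (plus strand), Idi1 at chr13:8885456-8885605 (plus), Cyp51 at chr5:4104698-4104847 (minus) and Msmo1 at chr8:64733579-64733728 (minus).
Hmgcs1: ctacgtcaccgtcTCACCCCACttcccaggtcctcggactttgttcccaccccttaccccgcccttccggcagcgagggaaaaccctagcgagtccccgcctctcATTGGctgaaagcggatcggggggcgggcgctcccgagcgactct
Idi1: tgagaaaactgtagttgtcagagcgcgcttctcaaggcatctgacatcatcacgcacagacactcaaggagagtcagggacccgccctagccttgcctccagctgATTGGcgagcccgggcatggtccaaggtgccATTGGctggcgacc
Cyp51: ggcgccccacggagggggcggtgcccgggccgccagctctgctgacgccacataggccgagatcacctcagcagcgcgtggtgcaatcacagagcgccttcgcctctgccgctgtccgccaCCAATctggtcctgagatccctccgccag
Msmo1: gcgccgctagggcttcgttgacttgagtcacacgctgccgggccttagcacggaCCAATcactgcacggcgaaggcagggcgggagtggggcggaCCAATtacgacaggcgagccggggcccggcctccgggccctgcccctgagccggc

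In these windows the CCAAT letters begin 45 bases before the start in Hmgcs1, 45 and 14 in Idi1, 29 in Cyp51 and 96 and 55 in Msmo1. Over the table's full windows, 250 bases before to 50 after the start and both strands, CCAAT was found in 14 of 14 cholesterol synthesis genes with a window, against 41.1% of all 27025 genes. The sterol regulatory letters TCACNCCAC were found in 1 of the 14, Hmgcs1, against 1.44% of all genes. The E-box CACGTG was found in 3 of the 14, against 8.09% of all genes. CCAAT was found in 16 of 23 fatty acid synthesis genes and in 10 of 25 genes of the fatty acid oxidation list. Lists that were not low in A34 held it as well. It was found in 9 of 14 sterol uptake and regulation genes, 18 of 26 antigen presentation genes and 17 of 43 interferon response genes. A match describes the letters of a window and not a bound site.

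Fatty acid synthesis was low to a lesser degree. Of 29 genes of fatty acid and triglyceride synthesis 18 lay below 0 (40.9% of all genes), with a median of -0.33. Of them 3 were lower by 2-fold or more (0.452% of all genes) and 1 higher by as much (1.4%). At 1.5-fold 8 were lower (2.65% of all genes) and 5 higher (7.6%). Over probes whose decimals show 4 arrays the median was -0.84, with 11 genes left. Elovl6, which lengthens palmitate, stood at -1.51, and Fasn, which makes palmitate, at -1.15. Upstream of them the citrate lyase Acly was at -0.86 and the malic enzyme Me1, a source of NADPH, at -0.97. The fatty acid transporter Cd36 was at -1.23 and the lipid-storage regulator Pparg at -0.84. The phosphatase Lpin1 had probes at -1.74, -0.91 and 0.39, which disagreed in direction. Gpam, which starts triglyceride synthesis by acylating glycerol phosphate, was the higher one at 1.23.

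Fatty acid oxidation and other PPARA targets gave a mixed picture around the lowest gene of the column. Cyp4a14, an omega-hydroxylase of fatty acids, stood at -3.10, 8.57-fold lower than in wild type, on a single probe. Its close relative Cyp4a10 had probes at -0.59 and -0.96; the sequences of the family are similar, so a probe may read more than the gene it names. Mfsd2a, a transporter of lysolipids, was at -1.85, the lipid droplet protein Cidec at -1.05 and the thioesterase Acot1 at -0.73. On the other side stood the dehydrogenase Hadh, with probes at 0.24 and 1.86, Cyp4a12a at 0.83 and the receptor gene Ppara at 0.68. Over 33 genes 3 were lower by 2-fold or more (0.452% of all genes) and 1 higher by as much (1.4%). The median of 0.14 was close to that of all genes. Cyp4a14 was at -3.10 in A34, 2.10 in DTrsp, -1.63 in G37L and -1.32 in G37H. Cd36 was likewise below 0 in the transgenic lines, at -1.23 in A34, -1.63 in G37L and -1.92 in G37H, and stood at 2.41 in DTrsp.

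Among glucose and insulin response genes 2 of 20 were lower by 2-fold or more (0.452% of all genes) and 1 higher by as much (1.4%), with a median of -0.03. The lower ones were Igfbp1, a binding protein of insulin-like growth factor, at -1.38, and G6pc, the phosphatase that releases glucose, at -1.02. Pfkfb3, which sets the level of a glycolytic activator, had probes at -0.88 and -0.79. Igfbp2, of the same family as Igfbp1, was on the other side at 1.27, and the gluconeogenic enzyme Pck1 was at 0.32.

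Antigen presentation was among the lists farthest above the median of all genes. Of 34 measured genes 30 lay above 0 (59.1% of all genes), 4 were at least 2-fold higher (1.4% of all genes) and 0 lower, with a median of 0.47, which remained 0.29 above that of abundant transcripts. Tap1, which carries peptides to class I molecules, stood at 1.36. Psmb8, a catalytic subunit of the immunoproteasome, had probes at 1.14, 1.15 and 1.16, so its probes agreed closely. The 5 immunoproteasome and proteasome activator genes had a median of 0.74, while the 36 genes of the constitutive proteasome had one of 0.14. Psmb9, another subunit, was at 0.79. H2-Bl, a class I gene, was at 1.33 and H2-Q6 had probes at 0.22 and 1.48, but class I genes are alike in sequence and their probes may cross-read. Of class II, the invariant chain Cd74 had probes at 0.86 and 1.37, H2-Aa stood at 0.99, and the processing protease Ctss at 0.92. H2-Eb1, picked as the lowest of the whole list, was at -0.16. The 20 members on chromosome 17, which holds the mouse H2 complex, had a median of 0.51 and the 14 elsewhere one of 0.36.

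The interferon list had a lower median than antigen presentation. Of its 51 genes 40 lay above 0 (59.1% of all genes), 2 were at least 2-fold higher (1.4% of all genes) and 0 lower. The median of 0.29 was 0.10 above that of abundant transcripts. Igtp, an immunity-related GTPase of the cell-autonomous defence, stood at 2.04, or 4.10-fold higher than in wild type. Irgm2 of the same family was at 1.198, and Iigp1 had probes at 0.71 and 1.05. Ube2l6, which is not on the list counted and conjugates the ubiquitin-like ISG15, had probes at 1.52 and 1.72, and Isg15 itself, picked with its value known, was at 0.56. The oligoadenylate synthetase Oas1g stood at 0.89 and the chemokine Cxcl9 at 0.71. Cxcl10 and the sensor Ifih1, also picked with their values known, were at -0.03 and -0.57. Igtp was at 2.04 in A34, 0.75 in DTrsp, 0.42 in G37L and 0.68 in G37H.

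The promoters of Igtp and Irgm2 are shown because both hold 2 interferon motifs side by side. They are also the 2 genes of the list at least 2-fold higher. Both windows hold nearly the same stretch of letters around the pair, so they are not 2 separate examples of it. Each sequence is the 100 bases before the start (RefSeq, GRCm38.p6, plus strand), Igtp at chr11:58199456-58199555 and Irgm2 at chr11:58214877-58214976. Capitals mark the gamma-activated letters TTCNNNGAA and, after 2 bases in lower case, the interferon-stimulated letters, GAAA, any 2 bases and GAAA.
Igtp: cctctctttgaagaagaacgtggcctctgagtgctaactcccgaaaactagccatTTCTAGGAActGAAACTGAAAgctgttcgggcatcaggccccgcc
Irgm2: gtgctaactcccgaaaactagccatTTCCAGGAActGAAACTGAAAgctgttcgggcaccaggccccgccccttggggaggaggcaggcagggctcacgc

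The gamma-activated match starts 45 bases before the start of Igtp and 75 before that of Irgm2. Searched on both strands of the full windows, the interferon-stimulated letters were found in 19 of 43 interferon response genes with a window, against 3.99% of all genes. TTCNNNGAA was found in 12 of the 43, against 9.55%. Matches to both motifs were also found in Gbp7, at 0.54 in A34, Irf2 at 0.51 and Bst2 at -0.06, so holding both did not mark the high genes alone. Members of this list are known interferon targets, and a match is no bound site.

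Immune cell markers were measured beside these lists. Of 41 Kupffer cell and macrophage markers 33 lay above 0 (59.1% of all genes), with a median of 0.35. Of them 2 were higher by 2-fold or more (1.4% of all genes) and 1 lower by as much (0.452%). The complement C1q chains C1qa, C1qb and C1qc, made by macrophages, were at 0.98, 0.73 and 1.12, the pore-forming Mpeg1 at 1.12 and lysozyme Lyz2 at 0.77. The high-affinity immunoglobulin receptor Fcgr1 was at -1.55. Among the defining Kupffer cell genes, picked with their values known, Clec4f stood at 0.60, Vsig4 at 0.70, Adgre1 at 0.37, Marco at 0.15 and Timd4 at -0.06. In whole liver, more cells of a type and more RNA per cell cannot be told apart, and the part of macrophages in the antigen presentation values was not tested.

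Lymphocyte markers had a median of 0.18 over 15 genes, with 2 higher by 2-fold or more (1.4% of all genes) and 0 lower (0.452%). Both were immunoglobulin genes, the heavy chain Ighm at 2.67 and the kappa variable gene Igkv3-2 at 2.10. The kappa constant gene Igkc, picked with its value known, was at -0.15, the T cell coreceptor Cd8a at -0.44 and the adhesion molecule Cd2 at 0.78. The 5 neutrophil markers had a median of 0.18, ranging from -0.95 for Csf3r to 0.79 for Mmp9. The 21 endothelial markers had a median of 0.23, with the nuclease Dnase1l3 highest at 0.80. The 19 stellate cell and fibroblast markers had a median of 0.16, the 8 erythroid markers 0.28 and the 3 cholangiocyte markers 0.44. None of these other cell lists, lymphocytes aside, held a gene at least 2-fold apart.

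Hepatocyte genes were themselves a little high, with a median of 0.34 over 32 markers, 27 above 0 (59.1% of all genes) and none 2-fold apart. The transcription factor Cebpa had probes at 0.65 and 1.28, and Hnf4a was at 0.47. Genes of plasma proteins, most of them made by hepatocytes, are given next. Of 27 complement genes 24 lay above 0 (59.1% of all genes), with a median of 0.51. Of them 2 were higher by 2-fold or more (1.4% of all genes) and 0 lower (0.452%). Besides C1qc the higher one was C9, the pore component, with probes at 0.998 and 1.33. The initiating proteases C1ra and C1s1 had probes between 0.31 and 2.01 and between 0.10 and 1.43, all above 0, and the pore component C6 had probes at 0.53 and 1.13.

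Among 37 coagulation and plasma protein genes 35 lay above 0 (59.1% of all genes), with a median of 0.36. Of them 4 were higher by 2-fold or more (1.4% of all genes) and 1 lower (0.452%). Plasminogen, Plg, the precursor of the clot-dissolving enzyme, had probes at 1.21 and 1.23, which agreed closely. Its inhibitor Serpinf2 had probes at 0.74 and 2.41. The clotting factors F7 and F12 stood at 1.21 and 1.22, with F12 probes at 0.67 and 1.77. Serpina7, which carries thyroxine in plasma, was the lower one at -1.44; it was at -1.44 in A34, 1.70 in DTrsp, 1.88 in G37L and -1.38 in G37H. The fibrinogen chains Fga, Fgb and Fgg and albumin Alb, picked with their values known, stood at 0.31, 0.02, 0.15 and 0.42.

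Of 38 acute phase genes 34 lay above 0 and 6 were at least 2-fold higher, with 0 lower and a median of 0.42, where 59.1% of all genes lay above 0 and 1.4% were as high. Serum amyloid Saa1 was at 1.29, the protease inhibitor Serpina3n at 1.08, and haptoglobin Hp had probes at 0.47 and 1.67. The other 3 were the transferrin receptor Tfr2, with probes at 0.49 and 1.64, and the metallothioneins Mt1 and Mt2. Saa1 was at 1.29 in A34, 0.05 in DTrsp, 4.31 in G37L and 2.27 in G37H. Saa2, near-identical to Saa1 in sequence and picked with its value known, was at 0.64, and A2m, likewise chosen, at -0.80.

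Mt1 and Mt2, the metallothioneins of liver and small metal-binding proteins, were high in every line. Mt2 stood at 1.67 in A34, 4.21 in DTrsp, 4.46 in G37L and 4.43 in G37H, and Mt1 at 1.48 in A34, 2.74 in DTrsp, 3.94 in G37L and 3.16 in G37H. Mt4 stood at 1.02 in A34, while Mt3 was at 0.09, the metal sensor Mtf1 at -0.09 and the zinc exporter Slc30a1 at 0.24, with probes at -0.23 and 0.72. Over these 6 genes the median was 0.63 (1.25 over the 4 with 1 probe), with 3 higher by 2-fold or more (1.4% of all genes) and 0 lower (0.452%). Mt1, Mt2 and Mt4 are similar in sequence, so their probes may read each other.

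Genes that differ between the sexes in mouse liver were measured in these males. Of 32 male-biased genes 26 lay above 0 (59.1% of all genes), with a median of 0.51, 4 higher by 2-fold or more (1.4% of all genes) and 0 lower. They were Serpina12, a secreted protease inhibitor also called vaspin, at 1.65, the glucuronosyltransferase Ugt2b38 at 1.17, C9, and the oxysterol hydroxylase Cyp7b1 at 1.14. Of 17 female-biased genes 10 lay below 0 (40.9% of all genes) and 7 above, with a median of -0.45. Only Cyp4a14 was at least 2-fold lower (0.452% of all genes). Without Cyp4a14 the median was -0.43, and over genes with 1 probe it was -0.15. Next lowest were the drug-inducible Cyp2b10, with probes at -0.35, -1.26 and -1.30, and the glutathione transferase Gstt3 at -0.93. The coumarin hydroxylase family member Cyp2a4 went the other way at 0.85.

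Detoxification genes had a median near that of all genes and some members high. Of 70 phase II and NRF2 target genes 6 (8.57%, against 1.4% of all genes) were higher by 2-fold or more and 1 (0.452% of all genes) lower by as much, and the median of 0.20 was 0.13 above that of all genes and 0.01 above that of abundant transcripts. The glucuronosyltransferases Ugt1a6a, with probes at 1.01, 1.24 and 1.91, and Ugt1a1 at 1.21 share exons, so their probes may read the same transcripts. Ces1g, a carboxylesterase, was at 1.24, the stress-induced Osgin1 at 1.23, the glutathione transferase Gstp3 at 1.12 and Cyp2a5 had probes at 0.62, 1.38 and 1.64. Aldh1a7, an aldehyde dehydrogenase, was the lower one at -1.002, followed by Pgd of the pentose phosphate pathway at -0.99. The classical NRF2 target Nqo1, picked with its value known, had probes at -0.12 and -0.14. It was at -0.13 in A34, while Hmox1, also chosen, was at 0.62 in A34, 4.03 in DTrsp, 1.27 in G37L and 1.09 in G37H.

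The 25 glutathione, thioredoxin and other antioxidant genes had a median of 0.17 and held none 2-fold apart, from Prdx3, a mitochondrial peroxiredoxin, at -0.47 to Gclm, a subunit of the enzyme that starts glutathione synthesis, at 0.63. The 37 cytochrome P450 genes had a median of 0.11, 1 higher by 2-fold or more (1.4% of all genes) and 0 lower (0.452%). The higher one was Cyp2d26, with probes at 0.69 and 1.36. Of 25 genes of bile acid synthesis and transport only Cyp7b1 was 2-fold apart, on the higher side (1.4% of all genes), and the list median was 0.19. The hydroxylase Cyp8b1 stood at -0.74, Cyp27a1 had probes at 0.07 and 1.68, and Cyp7a1, the rate-limiting enzyme, picked with its value known, was at -0.30. Over 27 lipoprotein genes the median was 0.26, with Lcat at 1.01 and the endothelial lipase Lipg at -1.26.

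**Figure D4:**
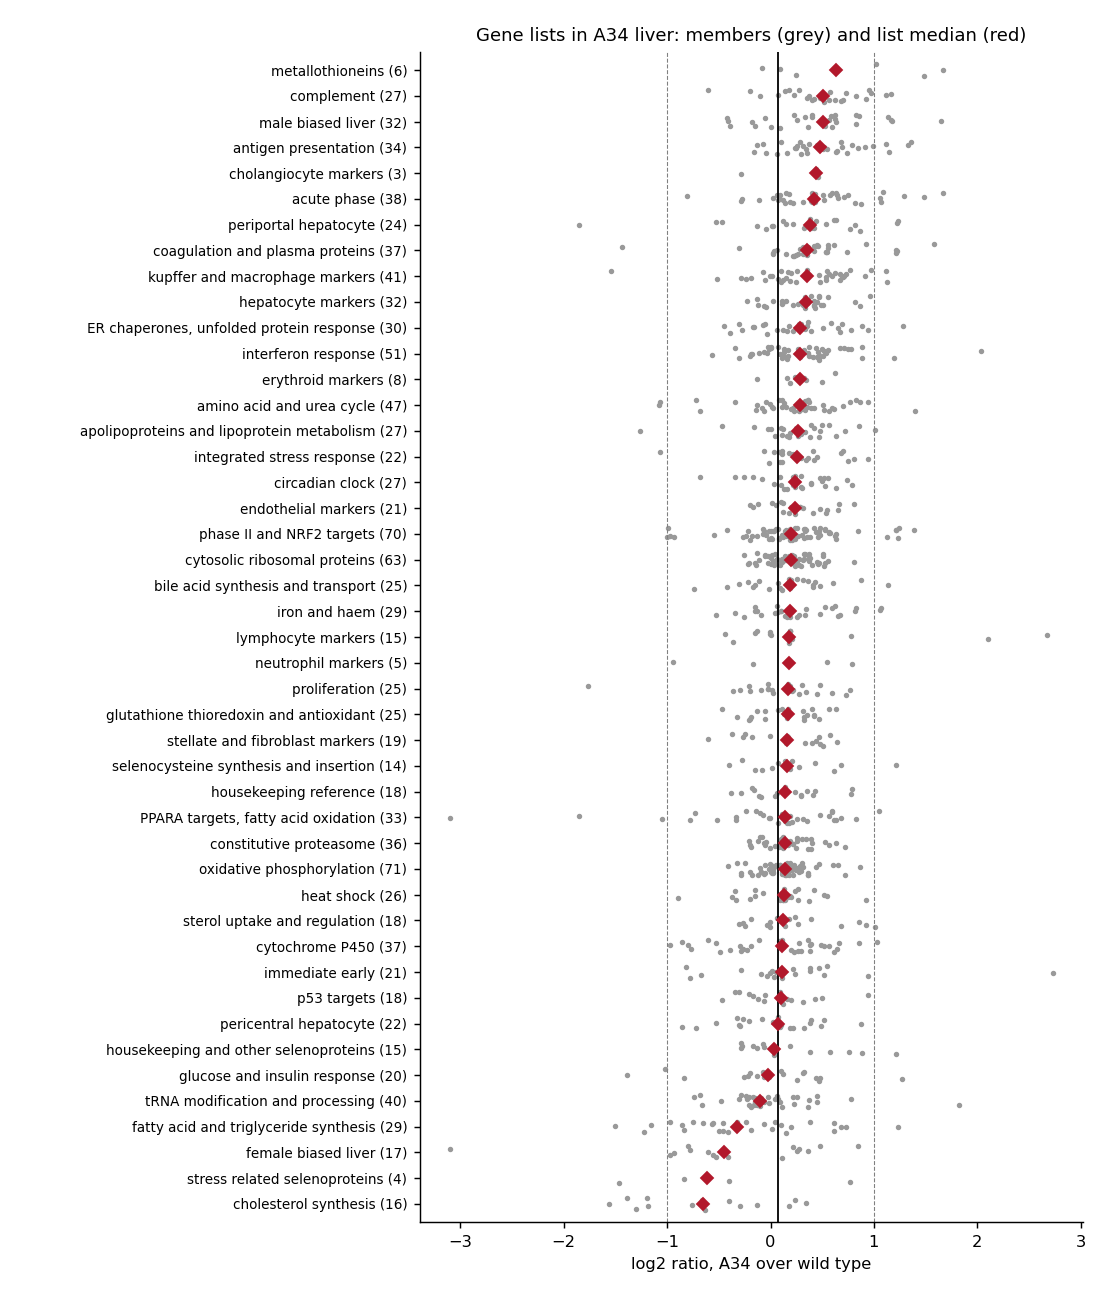
Log2 ratio of A34 over wild type for the members of 45 gene lists (grey dots, number measured in brackets) with each list's median (red diamonds), sorted by median. The solid line marks the median of all genes at 0.07 and dashed lines mark 2-fold; cholesterol synthesis lies lowest at -0.65 and the metallothioneins highest at 0.63. A gene may be on several lists.

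Centred on abundant transcripts, 18 list medians above 0 as deposited lay below 0. They were sterol uptake, fatty acid oxidation, the other selenoproteins, selenocysteine factors, antioxidant genes, cytochrome P450, lymphocyte, neutrophil and stellate markers, pericentral genes, immediate early genes, heat shock, p53 targets, proliferation, iron and haem, oxidative phosphorylation, the constitutive proteasome and the reference genes. The direction of these lists therefore depends on the zero point. Oxidative phosphorylation and the reference genes are part of the centring set, so their own values enter that zero. Its hepatocyte markers also share 11 genes with the coagulation and plasma protein list and 7 with the acute phase list.

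Amino acid metabolism held members on both sides. Of 47 genes 1 was higher by 2-fold or more (1.4% of all genes) and 2 lower by as much (0.452%), with a median of 0.28. Cth, which makes cysteine from cystathionine, had probes at -1.20 and -0.94, and stood at -1.07 in A34, 0.17 in DTrsp, -2.47 in G37L and -2.35 in G37H. The aminotransferase Got1 was at -1.08 in A34, 0.26 in DTrsp, -1.004 in G37L and -0.94 in G37H. Ftcd, of histidine breakdown, had probes at 0.60 and 2.19, and the urea cycle enzymes Ass1 and Asl had probes between 0.16 and 1.57 and between 0.20 and 1.40. Of the hepatocyte zones, 24 periportal genes had a median of 0.38 and 22 pericentral genes one of 0.07. The antibody transporter Pigr and the dehydrogenase Aldh1b1, on the periportal list, were at 1.22 and 1.24, and Mfsd2a of the same list at -1.85. On the pericentral list the aminotransferase Oat was at -0.72 and the dioxin receptor Ahr at -0.86.

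Stress programmes showed few large values. Among 30 genes of endoplasmic reticulum chaperones and the unfolded protein response 1 was at least 2-fold higher (1.4% of all genes) and 0 lower (0.452%). It was Herpud1, which helps clear misfolded proteins, at 1.28, and the list median was 0.29. The 22 integrated stress response genes had a median of 0.25, with Cth the only 1 past 2-fold, on the lower side (0.452% of all genes). Atf4, the transcription factor of that response, had probes at 0.28 and 1.34. The 26 heat shock genes had a median of 0.13 and none 2-fold apart, ranging from -0.90 for Hspb1 to 0.92 for Stip1. The 18 p53 targets had a median of 0.10 and none 2-fold apart. Of 29 iron and haem genes 2, Hp and Tfr2, were at least 2-fold higher (1.4% of all genes), and the median was 0.19.

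Of 25 proliferation genes 1 was at least 2-fold lower (0.452% of all genes), and the median was 0.17. It was Pttg1, a securin and regulator of sister chromatid separation, at -1.76. Egr1, an immediate early transcription factor, stood at 2.73, the only 1 of 21 immediate early genes past 2-fold (1.4% of all genes higher). Dusp1 and Myc were at -0.78 and -0.68, and the list median was 0.11. The 27 circadian genes had a median of 0.24 and none 2-fold apart, with the repressors Cry2 at 0.79 and Per1 at 0.64 among the highest. Cytosolic ribosomal proteins, 63 in number, had a median of 0.20 between -0.26 and 0.81. The 71 oxidative phosphorylation genes had one of 0.14 and the 18 reference genes one of 0.14, and none of these 3 lists held a gene at least 2-fold apart.

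Genes read by several probes allow the probes to be set against each other. Among 2414 genes with 2 or more probes, 57 had every probe at least 1.5-fold higher (2.36%) and 15 every probe at least 1.5-fold lower (0.621%). The farthest from 0 by its nearest probe was Enho, which encodes the secreted peptide adropin, with probes at 1.64 and 1.70. Others high on both probes were Fam104a at 1.25 and 2.02, the secretory pathway protein Tmed2 at 1.24 and 1.36, the transporter Slc22a18 at 1.14 and 1.57 and Pcyt2, which makes phosphatidylethanolamine, at 1.09 and 1.22. Sae1, a subunit of the enzyme that activates SUMO, had probes at 1.11, 1.12 and 1.48 and stood at 1.24 in A34, 0.34 in DTrsp, 1.26 in G37L and 1.17 in G37H. Stard10, a lipid transfer protein, had probes at 1.09 and 2.20, and Tmprss6, the protease that restrains the iron hormone hepcidin, at 0.99 and 1.58. The steroid dehydrogenase Hsd3b2 and the receptor kinase Epha1 had all probes between 0.85 and 0.99.

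On the lower side, after Cyp51, Sqle and Cth, came Dct, an enzyme of melanin synthesis, with probes at -0.89 and -0.86, and the Golgi protein Golga2 at -1.08 and -0.81. Noct, a rhythmic nuclease on the circadian list, had probes at -0.68 and -0.69. The chemokine Ccl25 had probes at -0.68 and -1.40, the autophagy kinase Ulk2 at -0.65 and -0.67, and the growth factor receptor Tgfbr2 at -0.63 and -0.73. Of these 15 genes, the cholesterol list holds Cyp51, Sqle and Lss.

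**Figure D5:**
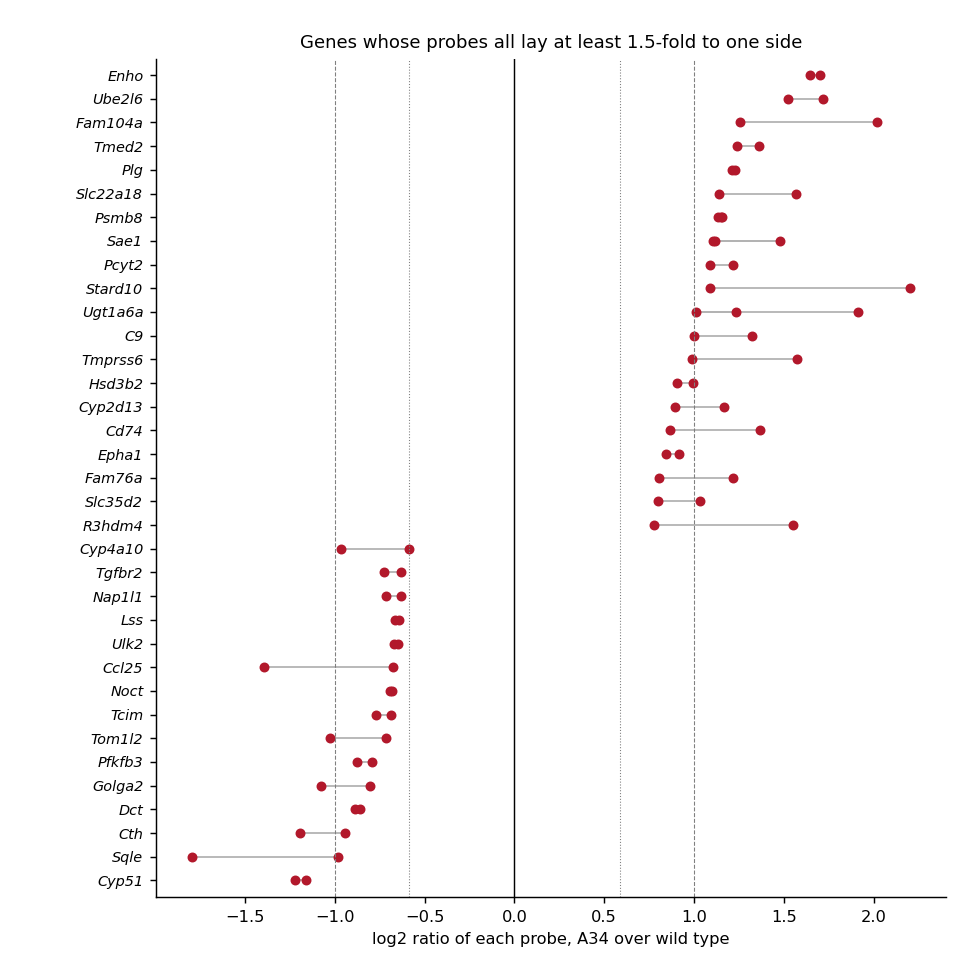
Log2 ratio of each probe, A34 over wild type, for genes with 2 or more probes that were all at least 1.5-fold to the same side: the 20 higher genes farthest from 0 by their nearest probe, from Enho down, and all 15 lower genes, down to Cyp51. Dotted lines mark 1.5-fold, dashed lines 2-fold, and each bar joins the probes of a gene.

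The highest single genes rested mostly on single probes. Cap1, a regulator of actin, led at 2.85 in A34, and stood at 0.33 in DTrsp, 3.18 in G37L and 3.11 in G37H. Arf5, a small GTPase of the Golgi, was at 1.64 in A34, 0.07 in DTrsp, 1.47 in G37L and 1.33 in G37H. Both were thus high in the 3 transgenic lines and near 0 or slightly above it in the knockout, a difference that was not tested. Xylt1, which starts the sugar chains of proteoglycans, was at 2.79 in A34, 2.46 in DTrsp, -0.47 in G37L and 1.36 in G37H. Further high genes were the hormone gene Pth2 at 2.59, Ccdc40 at 2.33, the lipid transporter Abca3 at 1.63, the protease inhibitor Serpinb1a at 1.61, and Gjb1, the gap junction protein of hepatocytes, at 1.56. Apol9a and Apol9b, near-identical neighbours in sequence, were at 1.504 and 1.51 in A34 and at 1.22 and 1.63 in DTrsp.

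Among the lowest genes outside the lists, the purine-degrading oxidase Xdh was at -1.56 in A34, 0.64 in DTrsp, -0.45 in G37L and 0.08 in G37H. The adhesion adaptor Lims1 stood at -1.46, the ceramide synthase Cers6 at -1.25, the deubiquitinase Usp36 at -1.25 and the ion channel gene Asic5 at -1.26. Asic5 was also low in the other transgenic lines, at -2.13 in G37L and -1.96 in G37H, and stood at 0.82 in DTrsp. Prl5a1 and the odorant receptor gene Olfr1045 were at -1.18 and -1.17, each on a single probe.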

How the data were processed

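RNA from male mouse liver was measured on 2-colour arrays. Total RNA was extracted with Trizol, and 15 µg was copied from oligo-dT with the Fairplay II kit and coupled to Cy3 (wild type) or Cy5 (mutant), per the labels' protocols. The deposited table holds log ratios, taken here as log2, averaged by the authors over 4 animals for A34, per the labels. The sources used here do not give the scanner, background correction, normalization, spot filters or dye swaps. Replicates are biological and from littermates, per the labels, but only their average was used, so no depth, interval or test could be given and the number of arrays limits the precision.

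Decimals of the values bear on how many arrays were averaged. Of 15478 A34 values, 5354 (34.6%) have decimals of a 0.0001 step that an average of 4 arrays gives, and 2093 (13.5%) decimals that an average of 3 gives (tolerance 0.02 of a step). A further 4751 (30.7%) end in whole steps, which any number of arrays can give. Part of the probes therefore rest on fewer than 4 arrays.

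Probes were named through the platform annotation and RefSeq GRCm38.p6 (12984 by gene identifier, 63 by the annotation's symbol). The 110 probes of several genes and the 2321 not listed stayed unnamed. Probes of a gene were averaged with pandas 2.3.3 and numpy 2.4.6 in Python 3.11.15. Genes were counted at 2-fold. Lists were described by counts and medians beside all genes. The members and the 45 lists were chosen with earlier results of these data known. Named genes are the 30 highest and 30 lowest, up to 20 each way whose probes all lay at least 1.5-fold to the same side, all cholesterol synthesis, selenoprotein and selenocysteine genes, and of other lists up to 8 members with the largest values and any at least 2-fold apart; the text says where another gene was chosen. Promoters came from a RefSeq table. The count of higher genes and the list median were checked on simulated data with less scatter between probes than the column has. That check bears on the code and not on the accuracy of the calls. Alternatives were other thresholds, zero points, probe summaries, probe subsets and the logarithm's base.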

Additional observations from a re-analysis of the deposited data

Results flagged for a closer look

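Genes on the lists that were at least 2-fold apart in A34 and at least 2-fold to the opposite side in another line are given here. There were 17 such genes in 19 pairs of lines, of 64 list genes at least 2-fold apart in A34. The same was not counted over genes outside the lists, so whether 17 is many cannot be said. Each line has 1 averaged value, the difference between lines was not tested, and the sources used here do not say if wild-type animals were shared.

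Against DTrsp, lower in A34 were Cyp4a14 (-3.10 in A34, 2.10 in DTrsp), Pttg1 (-1.76 and 1.07), Serpina7 (-1.44 and 1.70), Igfbp1 (-1.38 and 1.12), Cd36 (-1.23 and 2.41) and Aldh1a7 (-1.002 and 1.07). Higher in A34 and lower in DTrsp were H2-Bl (1.33 in A34, -1.92 in DTrsp) and Cyp7b1 (1.14 and -1.08). Of these Cyp4a14, Cd36 and Igfbp1, are genes of lipid and glucose handling, and Cyp4a14 and Cyp7b1 are also on the lists of sex-biased genes.

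Against G37L, the cholesterol synthesis enzymes Sqle (-1.39 in A34, 1.503 in G37L), Cyp51 (-1.19 and 1.01) and Idi1 (-1.18 and 1.14) were lower in A34, as were Fcgr1 (-1.55 and 1.13) and Serpina7 (-1.44 and 1.88). Higher in A34 and lower in G37L were Ighm (2.67 in A34, -1.04 in G37L), Ces1g (1.24 and -1.16), Gpam (1.23 and -1.22) and Cyp2a5 (1.22 and -2.001). Against G37H, Fcgr1 was at -1.55 in A34 and 1.24 in G37H, and Serpina12 at 1.65 in A34 and -1.58 in G37H.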

How the results depend on the processing

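No paired analysis was possible because only the average over animals was used, and no animal could be left out for the same reason. The counts of higher and lower genes, 130 and 42, became 706 and 246 at 1.5-fold, 22 and 3 at 3-fold, 74 and 99 centred on abundant transcripts, and 442 and 151 with the values read as natural logarithms. They were 32 and 4 over genes with 2 or more probes and 67 and 15 over probes whose decimals show 4 arrays, in smaller sets of genes. Centred on the column median, with the median of probes or with 1-probe genes only, both counts stayed within 1.5 times. Asking every probe to pass 2-fold (added after seeing the data) leaves 1-probe genes as they are. Of called genes with 2 or more probes 11 of 32 higher and 1 of 4 lower passed it. Genes with every probe at least 1.5-fold to the same side, 57 and 15, became 11 and 1 at 2-fold and 910 and 401 for a shared sign. List medians have no spread between animals to be judged against. Those that moved by more than 0.35, the SD between single probes and a wide measure for a median, were fatty acid and triglyceride synthesis at -0.84, stress-related selenoproteins at -1.15 (2 genes), cholangiocyte markers at 0.087 (2 genes) and metallothioneins at 1.25 (4 genes), all over probes averaged over 4 arrays, and metallothioneins at 1.25 over 1-probe genes. Centred on abundant transcripts 18 of 45 list medians changed sign; cholesterol synthesis, antigen presentation and the plasma protein lists did not. Other changes of sign were the other selenoproteins centred on the column median (-0.036), p53 targets over 1-probe genes (-0.061), fatty acid oxidation as a mean (-0.038), and over 4-array probes neutrophil markers (-0.17), p53 targets (-0.15) and proliferation (-0.022). The female-biased median was -0.15 over 1-probe genes, against -0.45 as deposited. Without intensities, genes near background cannot be told from others.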

Other observations

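Genes at least 2-fold apart in A34 were spread over the chromosomes. The share at least 2-fold higher was 1.4% over all genes; it was 2.82% of 497 genes on chromosome 8, 2.46% of 447 on chromosome 17 and 0.346% of 289 on chromosome 16. No chromosome median left the range from 0.01 on X to 0.12 on 7. Decimals that any number of arrays can give were found for 36 of the 98 higher genes with 1 probe and 19 of the 38 lower ones against 30.7% of all probes. Cap1, at 2.85, had decimals that an average of 4 arrays gives, and so did Cyp4a14 at -3.10, Selenow at -1.47 and Tap1 at 1.36. Egr1, Ighm, Igtp and Hmgcs1 ended in whole steps.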
